A study of Mus musculus with 30 samples.

Results

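The Krüppel-like factor (KLF) genes Klf2, Klf3, Klf4, Klf6, Klf7, Klf9, Klf10 and Klf13 encode zinc-finger transcription factors, and they are 8 of the 21631 mouse protein-coding genes compared here. They were chosen by name. Each gene was measured by the length of chromatin immunoprecipitation (ChIP-seq) peaks assigned to it, which were the peaks that overlapped its annotated span widened by 1 kb on each side. A peak that touched no widened span was given to whichever gene ended closest to it, if that end lay no farther than 50 kb away. The series concerns the early loss of Crebbp, which encodes the lysine acetyltransferase CBP, in lymphoid progenitors. All animals were C57BL/6 and carried floxed alleles of the gene in every group (CBPfl/fl). Crebbp-null samples also carried Mx-Cre (CBPfl/fl:Mx-Cre+), in which an interferon-responsive promoter drives Cre, and wild-type samples lacked it (CBPfl/fl:Mx-Cre-). Lymphoproliferative disease (LPD) samples were Crebbp-null bulk splenocytes that had not been sorted. They were set against wild-type B220+ splenocytes purified by flow cytometry, with 2 peak lists per group for acetylation of histone H3 at lysine 27 (H3K27ac), lysine 18 (H3K18ac) and lysine 56 (H3K56ac). Crebbp-null Lin- IL7ra+ progenitors from lineage-depleted bone marrow were set against wild-type progenitors sorted in the same way, with 1 H3K27ac list each, and CBP itself was mapped in wild-type B cells in 1 list. LPD and B cells differed in genotype, in disease and in sorting at once, and these cannot be told apart. The labels give no age and no inducing agent, and they do not say that replicates came from separate animals, so p-values measure the spread between lists, which may be technical.

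KLF proteins bind GC-rich and CACCC-type boxes through zinc fingers at their carboxyl end, and their variable amino ends recruit coactivators such as CBP and p300 or corepressors such as CtBP and Sin3. In lymphocytes, Klf2 is known for holding cells in quiescence and for control of homing receptors, and Klf4 and Klf9 for restraint of B cell proliferation. Acetylation of histone H3 by CBP and its paralogue p300 marks active promoters and enhancers, H3K27ac and H3K18ac being their best-known products. A wider acetylated region says that more of a locus passed peak calling, and it is not a level of RNA.

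The acetylation lists held 13125 to 39529 peaks and covered 6.32 to 29.4 Mb. LPD lists covered 18.2 to 26.2 Mb of H3K27ac, 21.4 to 29.4 Mb of H3K18ac and 17.0 to 18.3 Mb of H3K56ac, against 26.4 to 27.1, 13.3 to 14.01 and 9.44 to 10.6 Mb in B cells. The lower LPD value of H3K27ac and of H3K18ac belonged to list 2 in both cases. The lists give positions with no read depth and no score, and they do not check the deletion of Crebbp. On the log2(kb + 0.2) scale the median gene differed between LPD and B cells by -0.11 for H3K27ac, 0.52 for H3K18ac and 0.51 for H3K56ac, and a member's difference has to be read against these shifts. Peaks were assigned to all 8 B cell markers (Cd79a, Cd79b and others) in every H3K27ac list of LPD and of B cells, and to 7 of the 8 in both progenitor lists. Their peaks summed to 64 to 96.9 kb of H3K27ac in LPD, against 116.6 to 124.6 kb in B cells, to 57.8 to 88.5 kb of H3K18ac in LPD, against 29.8 to 33.7 kb in B cells, and to 45.8 to 49.2 kb of H3K56ac in LPD, against 24.2 to 24.8 kb in B cells. Of 6 progenitor markers, 4 had peaks in both progenitor lists. The 6 summed to 6.32 kb of H3K27ac in Crebbp-null progenitors and 8.51 kb in wild-type progenitors. They summed to 5.19 to 6.85 kb in LPD and to 12.2 to 13.1 kb in B cells, which was more than in progenitors. Peaks of erythroid and megakaryocyte markers summed to 1.52 to 5.80 kb over the LPD lists of all marks, and Slc4a1 led, with 8 of 8 markers at 0 in every B cell and progenitor list. Myeloid markers summed to 0.478 to 1.81 kb of H3K27ac in LPD, against 3.32 to 3.55 kb in B cells, and T and NK cell markers to 3.36 to 4.67 kb in LPD, against 7.01 to 9.69 kb in B cells, with 6 of 8 markers of each list at 0 in both groups. For the other marks the order was the opposite: myeloid markers summed to 2.13 to 2.94 kb of H3K18ac in LPD, against 0.467 to 0.644 kb in B cells, and to 0.422 to 1.06 kb of H3K56ac in LPD, against 0 in B cells. T and NK cell markers summed to 6.44 to 8.28 kb of H3K18ac in LPD, against 5.67 to 5.95 kb in B cells, and to 4.32 to 4.80 kb of H3K56ac in LPD, against 3.72 to 4.23 kb in B cells. The part of these markers in the differences between LPD and B cells was not tested.

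The promoter windows of the members whose results follow are printed first, since the acetylated regions and the CBP peaks lie over or beside them. Each window runs from 250 bases before to 50 bases after the start of transcription and is taken from RefSeq on GRCm38.p6, 5′ to 3′ in the direction of the gene. In Klf2 and Klf9, the capitals mark bases inside a CBP peak of wild-type B cells. In Klf3 and Klf13, the capitals mark GC boxes (GGGCGG) and CACCC boxes (CACCC) on either strand, the kinds of site that KLF proteins bind.
Klf2, chr8:72318812-72319111, plus strand: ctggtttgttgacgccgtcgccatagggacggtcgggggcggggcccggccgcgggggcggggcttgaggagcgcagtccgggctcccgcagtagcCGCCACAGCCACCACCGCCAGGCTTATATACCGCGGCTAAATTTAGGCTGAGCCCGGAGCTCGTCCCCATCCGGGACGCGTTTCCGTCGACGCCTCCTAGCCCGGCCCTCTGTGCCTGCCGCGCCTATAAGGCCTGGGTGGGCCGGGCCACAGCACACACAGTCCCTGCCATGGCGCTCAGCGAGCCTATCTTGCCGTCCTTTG
Klf9, chr19:23140976-23141275, plus strand: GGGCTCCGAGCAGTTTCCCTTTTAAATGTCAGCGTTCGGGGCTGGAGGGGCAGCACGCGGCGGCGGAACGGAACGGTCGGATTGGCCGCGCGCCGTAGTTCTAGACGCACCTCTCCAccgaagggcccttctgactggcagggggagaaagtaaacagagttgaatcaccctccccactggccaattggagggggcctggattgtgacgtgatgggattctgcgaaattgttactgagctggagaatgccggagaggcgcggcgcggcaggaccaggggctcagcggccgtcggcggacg
Klf3, chr5:64803271-64803570, plus strand: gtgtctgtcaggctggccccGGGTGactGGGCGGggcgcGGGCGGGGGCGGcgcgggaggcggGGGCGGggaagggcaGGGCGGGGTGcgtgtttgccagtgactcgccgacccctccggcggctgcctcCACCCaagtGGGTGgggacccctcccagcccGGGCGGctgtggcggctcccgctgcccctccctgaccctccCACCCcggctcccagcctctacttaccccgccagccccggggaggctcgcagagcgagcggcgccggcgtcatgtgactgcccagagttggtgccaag
Klf13, chr7:63938866-63939165, minus strand: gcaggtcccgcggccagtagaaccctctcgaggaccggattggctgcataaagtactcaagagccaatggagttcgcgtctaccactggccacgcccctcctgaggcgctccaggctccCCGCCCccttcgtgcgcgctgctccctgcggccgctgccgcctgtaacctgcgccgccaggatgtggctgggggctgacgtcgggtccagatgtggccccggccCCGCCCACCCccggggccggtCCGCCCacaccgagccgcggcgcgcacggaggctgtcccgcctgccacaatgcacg

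The window table held 7 of the 8 members. Their windows were 58.3% (Klf7) to 76.7% (Klf3) G and C, against a median of 52.7% over 32851 windows of the same length. A GC box (GGGCGG) was found on either strand in 6 of 7 members and in 35.7% of all windows. A CACCC box was found in 5 of 7 members and in 57.5% of all windows. The short core of the cAMP response element (TGACG), which is bound by CREB, the factor for which CBP is named, was found in 5 of 7 members and in 20.8% of all windows. The full palindromic element (TGACGTCA), which contains that core on both strands, was found in 0 of 7 members and in 1.79% of all windows. A CCAAT box (CCAAT) was found in 3 of 7 members against 37.4% of windows, and a TATA box (TATAAA) in 0 of 7 against 13.6%. The Klf3 window held 6 GC boxes, at positions -222 to -84, and 5 CACCC boxes. The Klf2 window held a consensus MEF2 site, CTAAATTTAG, at positions -118 to -109 and inside the CBP peak; 1.86% of all windows held one. It reads the same on both strands. MEF2 factors are known to drive Klf2 transcription downstream of the kinase ERK5. These matches are descriptions of the letters only.

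Klf13, a regulator of chemokine transcription in lymphocytes, had shorter H3K27ac coverage in LPD than in B cells, and it was the member called for this mark. Its H3K27ac peaks covered 7.62 and 5.97 kb in LPD, against 14.5 and 14.9 kb in B cells. Both LPD lists lay far below both B cell lists. The summed H3K27ac of the B cell markers was also lower in LPD, as given above, and its part in the Klf13 difference was not tested. In such bulk samples fewer cells that carry a mark and less of it per cell cannot be told apart. The difference was -1.10 on the log2(kb + 0.2) scale (SE 0.214, limma adjusted p = 0.0361, n = 2 lists per group). Among all genes tested for H3K27ac, 11.7% were called lower and 7.86% higher, and among the members 1 of 8 was lower and 0 were higher. With either B cell list left out, the adjusted p was 0.395 or 0.401 at a difference of -1.12 or -1.08. With peaks inside the widened span alone the difference was -0.95 and the adjusted p 0.0527.

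The loss of Klf13 H3K27ac was spread over separate regions of the locus while the start site stayed covered. A region counts as lost when both B cell lists and neither LPD list hold a peak there, and as gained in the opposite case. Of 15 H3K27ac regions assigned to Klf13, 7 were lost, 5 were in all 4 lists and 0 were gained, and the 7 lost regions summed to 5.48 kb. Across all members 8 of 49 H3K27ac regions were lost and 3 were gained, against 15.9% lost and 11.4% gained of all 40435 regions. The widest lost region, chr7:63924748-63926380, lies inside the gene span, between 12.5 and 14.2 kb downstream of the start site. It held 1307 and 1464 bp of H3K27ac in B cells, and 0 bp in both LPD lists. The same region carried 341 bp in Crebbp-null progenitors and 634 bp in wild-type progenitors. H3K18ac covered 0 bp of it in both LPD lists, against 1063 and 919 bp in B cells, and H3K56ac 0 bp in both LPD lists, against 561 and 523 bp in B cells. It therefore held a peak in 6 of 6 B cell acetylation lists, in both progenitor lists and in 0 of 6 LPD lists. A region 35.2 kb upstream of the start site, chr7:63974132-63974574, was likewise without a peak in the 6 LPD lists and had one in 5 of 6 B cell lists. By contrast, the region over the start site, chr7:63935890-63938970, had a peak in all 14 acetylation lists, with 3032 and 2423 bp of H3K27ac in LPD, against 3013 and 3037 bp in B cells.

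**Figure D1:**
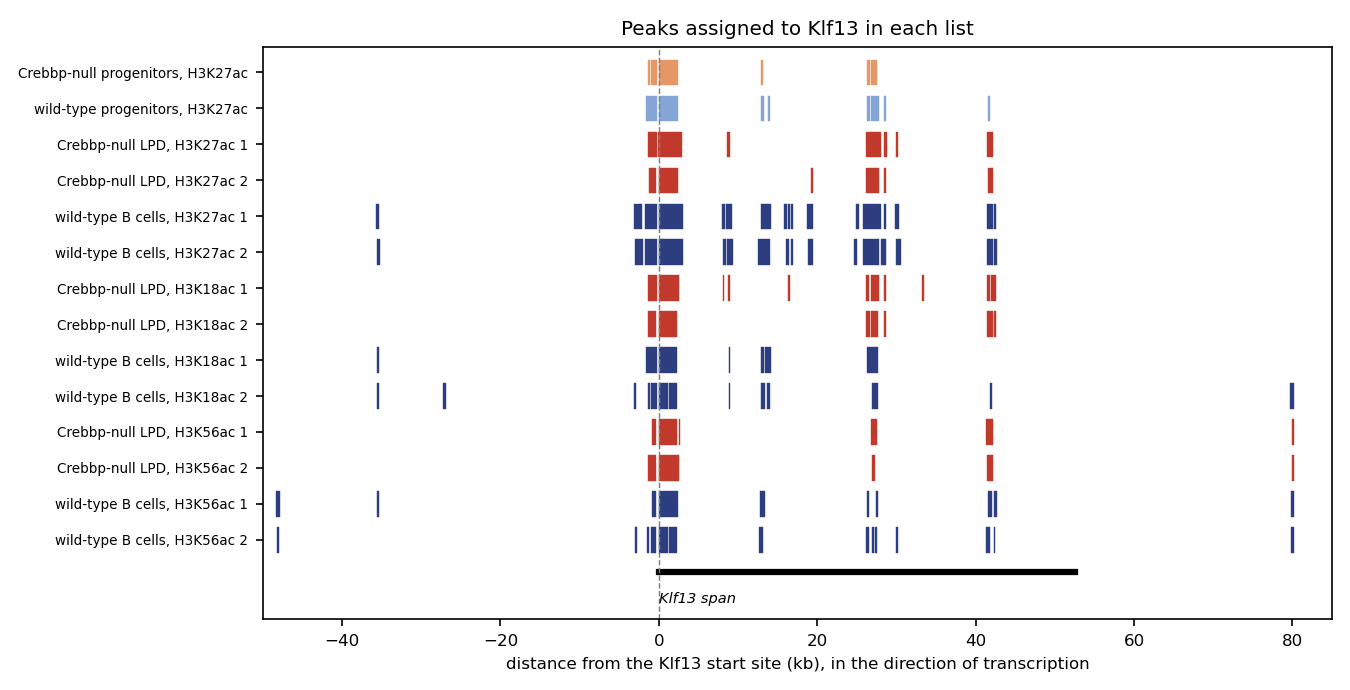
Peaks assigned to Klf13 in each of the 14 acetylation lists, by distance from the start site in kb along the direction of transcription (horizontal axis); each row is 1 list and each block 1 peak, drawn to scale, with the gene span in black below. The blocks between 12.5 and 14.2 kb are present in both progenitor lists and in all 6 B cell lists and absent from the 6 LPD lists, while the blocks at the start site are present in all 14.

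The fall of H3K27ac at Klf13 was larger than the change of H3K18ac and H3K56ac in the lists as deposited, but not after scaling. H3K18ac covered 7.28 and 5.91 kb in LPD, against 6.57 and 6.76 kb in B cells, and the groups overlapped. That difference was -0.02 (SE 0.182, limma adjusted p = 0.942), and it turned into a called decrease of -0.83 (adjusted p = 0.0079) once each list was scaled to the same covered length. H3K56ac covered 4.79 and 5.01 kb in LPD, against 5.99 and 6.35 kb in B cells, with no overlap. The H3K56ac difference of -0.32 passed the test narrowly (SE 0.0814, limma adjusted p = 0.0496) and was not called with any 1 list left out (adjusted p 0.074 to 0.185) or with peaks in the widened span alone (-0.12, adjusted p = 0.297). In the limma fit after scaling to covered length it was -1.09 (adjusted p = 0.00944), and after centring on the median gene -0.83 (adjusted p = 0.0118). In 1 limma fit over the 12 LPD and B cell lists, the LPD difference at Klf13 was 1.08 higher for H3K18ac than for H3K27ac (SE 0.213, adjusted p = 0.00856), and 0.78 higher for H3K56ac than for H3K27ac (SE 0.213, adjusted p = 0.0337). Over all genes, 23.8% were called higher in the first of these tests and 20.2% in the second, with median differences of 0.61 and 0.60, and 2 of 8 members were called higher in each. After centring on the median gene limma gave 0.47 (adjusted p = 0.194) and 0.18 (adjusted p = 0.65) for Klf13, and after scaling to covered length 0.01 and -0.25, so neither call held under either scaling. With a B cell list left out, the limma adjusted p was 0.128 to 0.25 over both tests.

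Klf3, a repressor that works through CtBP, gained H3K18ac and H3K56ac in LPD over the first 10 kb of its span. H3K56ac covered 8.302 and 7.66 kb in LPD, against 3.29 and 2.53 kb in B cells. H3K18ac covered 10.2 and 7.59 kb in LPD, against 1.98 and 3.91 kb in B cells. For both marks each LPD list lay above each B cell list. The difference was 1.40 for H3K56ac (SE 0.154, limma adjusted p = 0.00909) and 1.59 for H3K18ac (SE 0.374, limma adjusted p = 0.0408). In limma, the H3K56ac increase was called also after scaling to covered length (0.64, adjusted p = 0.0299) and after centring on the median gene (0.90, adjusted p = 0.0322), but not without an LPD list (adjusted p = 0.129 without either). In limma, the H3K18ac increase was not called under either scaling (0.79, adjusted p = 0.109 and 1.08, adjusted p = 0.112). With 1 list left out it was 1.13 to 2.05 and was not called. Without a B cell list the H3K18ac fit called no gene at all, so those fits could not judge it.

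H3K27ac was broad at Klf3 in both groups, with 13.2 and 8.76 kb in LPD, against 8.89 and 9.32 kb in B cells. The groups overlapped, and the difference of 0.24 did not pass the test (SE 0.268, limma adjusted p = 0.585). It was called higher after scaling to covered length (0.49, limma adjusted p = 0.0164). The widest H3K27ac peak of LPD list 1 was 4929 bp and that of LPD list 2 was 2045 bp, against 2090 and 2010 bp in B cells. In the joint limma fit the LPD difference was 1.36 higher for H3K18ac than for H3K27ac (SE 0.443, adjusted p = 0.0563) and 1.17 higher for H3K56ac (SE 0.443, adjusted p = 0.0947), and neither passed.

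The gained regions of Klf3 lay inside the gene. For H3K56ac, 4 regions of 2.99 kb in all had peaks in both LPD lists and in neither B cell list, among them chr5:64807275-64807810, chr5:64807909-64808534 and the 1511-bp region chr5:64809634-64811144. For H3K18ac, 2 regions were gained in the same stretch (chr5:64807574-64807815 and chr5:64807909-64808526), and for H3K27ac the 1022-bp region chr5:64807574-64808595. All acetylation lists held a peak in the merged region over the start site, chr5:64802440-64808595, which LPD filled with 4116 and 3675 bp of H3K56ac, against 1904 and 1068 bp in B cells. In the next region, chr5:64808742-64813670, H3K18ac covered 3950 and 3563 bp in LPD, against 200 and 1093 bp in B cells. Progenitors carried 651 bp of H3K27ac there in the null and 760 bp in wild type. RefSeq places a further gene, Gm38457, within reach of both of these Klf3 regions, and peaks there were counted for both genes.

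**Figure D2:**
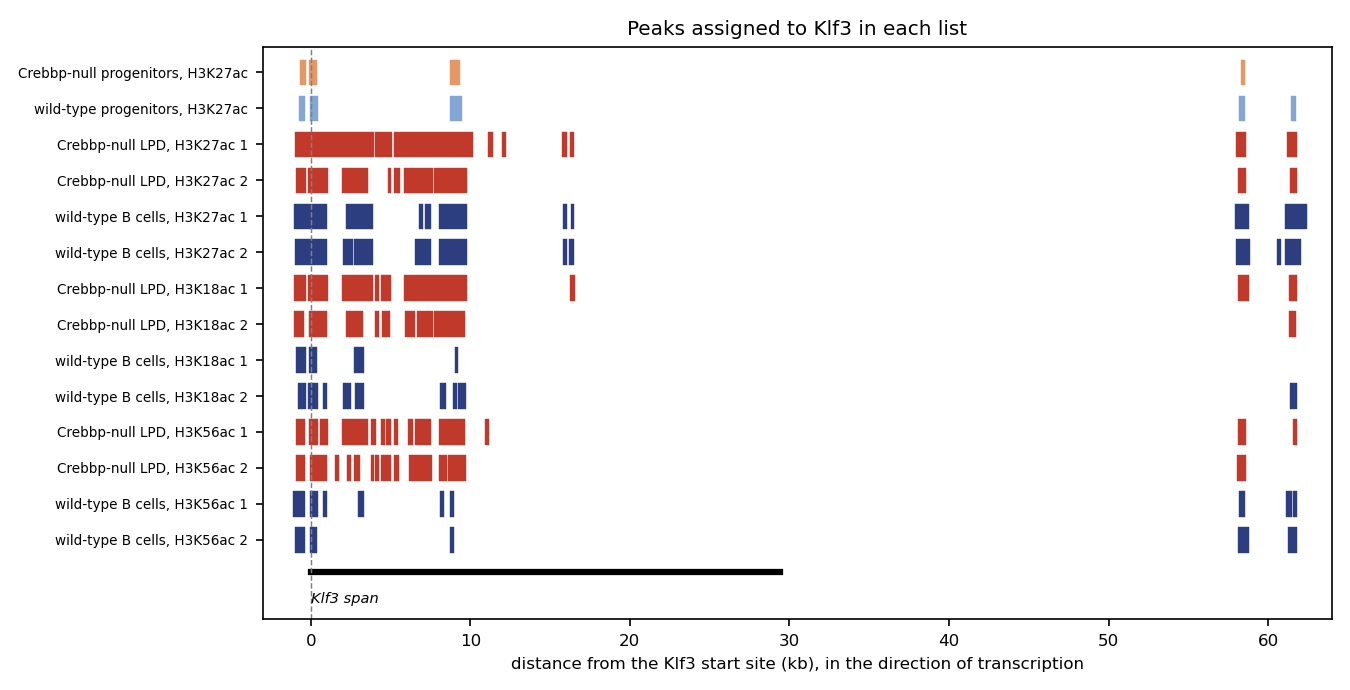
Peaks assigned to Klf3 in each of the 14 acetylation lists, by distance from the start site in kb (horizontal axis); each row is 1 list and each block 1 peak, to scale. Between about 4 and 5 kb the LPD rows of all 3 marks hold blocks that the B cell rows lack.

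Klf10, an early gene induced by TGF-beta, had wider acetylation in LPD for the same marks. H3K56ac covered 2.952 and 2.95 kb in LPD, against 0.77 and 0.865 kb in B cells. H3K18ac covered 4.30 and 3.71 kb in LPD, against 1.61 and 1.75 kb in B cells. The LPD lists lay above the B cell lists without overlap for both marks. The difference was 1.63 for H3K56ac (SE 0.0944, limma adjusted p = 0.00348) and 1.16 for H3K18ac (SE 0.177, limma adjusted p = 0.0147). H3K27ac covered 3.54 and 3.05 kb in LPD, against 2.22 and 2.47 kb in B cells, which also did not overlap, but the difference of 0.45 was not called (SE 0.175, limma adjusted p = 0.162) except after scaling to covered length (0.69, adjusted p = 0.027). In the joint limma fit the LPD difference was larger for H3K56ac than for H3K27ac by 1.18 (SE 0.182, adjusted p = 0.00444) and for H3K18ac by 0.70 (SE 0.182, adjusted p = 0.0248). After centring on the median gene limma gave 0.58 (adjusted p = 0.12) and 0.09 (adjusted p = 0.799), and with a B cell list left out the adjusted p was 0.065 to 0.149.

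All of the H3K27ac and H3K56ac of Klf10, and most of its H3K18ac in LPD, lay in a single region at the end of the Klf10 gene with the higher coordinates, chr15:38298492-38302171, which had a peak in all 14 acetylation lists. It held 2515 bp of H3K27ac in Crebbp-null progenitors and 2978 bp in wild-type progenitors. In LPD 1 H3K56ac region inside the gene span, chr15:38298636-38298969, and 1 H3K18ac region just outside it, chr15:38302321-38302641, were gained. In limma, the H3K56ac difference was called also after scaling to covered length (0.94, adjusted p = 0.0183) and centring (1.13, adjusted p = 0.00904), and was not called without LPD list 1 (adjusted p = 0.0525) or list 2 (adjusted p = 0.0561). In limma, the H3K18ac difference was not called under scaling (0.39, adjusted p = 0.073) or centring (0.64, adjusted p = 0.0731). It was also not called without LPD list 1 or either B cell list. With 1 list left out it was 1.06 to 1.26. Without a B cell list the H3K18ac fit called no gene at all, so those fits could not judge it.

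**Figure D3:**
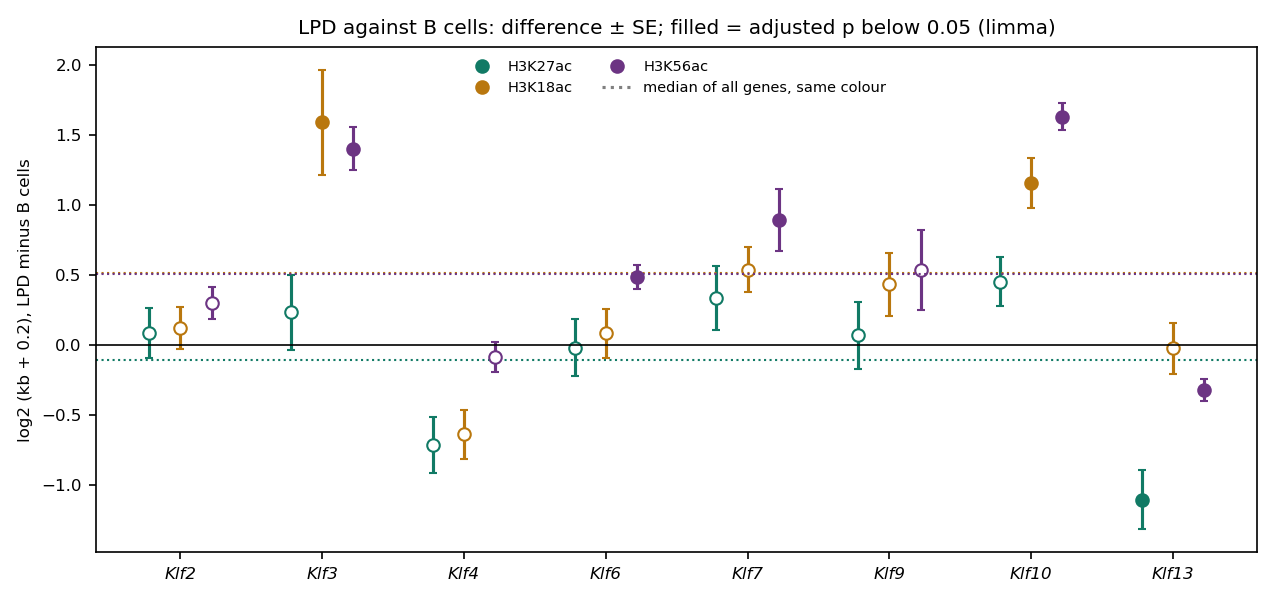
Difference between LPD and B cells in log2(kb + 0.2) for each member and mark (vertical axis), with bars of 1 standard error from limma over 2 lists per group. Filled points have an adjusted p below 0.05, and dotted lines give the median of all genes in the mark's colour (-0.11, 0.52 and 0.51). Klf3 and Klf10 stand above the dotted lines for H3K18ac and H3K56ac, and Klf13 stands below them.

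For H3K18ac, the calls at Klf3 and Klf10 made 2 of 8 members higher and 0 lower, against 26% higher and 3.22% lower of all 12223 genes tested. For H3K56ac, 4 of 8 members were called higher (Klf3, Klf6, Klf7 and Klf10) and 1 lower (Klf13), against 36.8% higher and 3.78% lower of 11814 genes. The members' median difference was 0.28 for H3K18ac and 0.51 for H3K56ac, beside 0.52 and 0.51 for all genes. With 8 members, neither count of higher calls stood far from the share over all genes. Of 58 H3K18ac regions of members, 8 were gained and 3 lost, against 25% gained and 3.88% lost of all regions. Of 57 H3K56ac regions, 10 were gained and 5 lost, against 23.7% gained and 4.21% lost of all regions. Klf13 held all 3 lost H3K18ac regions and 4 of the 5 lost H3K56ac regions.

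Klf7, studied for its role in neurons and axon growth, gained an H3K56ac region far inside its 92.9-kb span. H3K56ac of the gene covered 2.759 and 2.75 kb in LPD, against 1.74 and 1.11 kb in B cells, without overlap. The difference was 0.89 (SE 0.222, limma adjusted p = 0.0474), and it was not called after scaling to covered length (0.17, adjusted p = 0.479), after centring (0.39, adjusted p = 0.257) or without either LPD list (adjusted p 0.281 and 0.298). The gained region, chr1:64078204-64079519, lies more than 41 kb downstream of the tabulated start site. H3K56ac covered 1166 and 1316 bp there in LPD, and 0 bp in both B cell lists. H3K27ac and H3K18ac marked the region in both groups, H3K27ac with 1292 and 1160 bp in LPD, against 1026 and 728 bp in B cells. Progenitors had no H3K27ac peak there. For H3K18ac, 3 regions of Klf7 were also gained (chr1:64043326-64043925, chr1:64044071-64044602 and chr1:64088218-64088886), although its H3K18ac total of 4.55 and 4.32 kb in LPD, against 2.93 and 3.05 kb in B cells, was not called (difference 0.54, limma adjusted p = 0.0689). The H3K27ac total of 3.70 and 2.69 kb in LPD, against 2.69 and 2.24 kb in B cells, was not called either (0.34, limma adjusted p = 0.391), except after scaling to covered length (0.58, adjusted p = 0.025).

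Klf6, a widely expressed factor that has been described as a tumour suppressor, had wider H3K56ac in LPD, with 4.999 and 5.28 kb, against 3.75 and 3.46 kb in B cells. The difference was 0.49 (SE 0.0877, limma adjusted p = 0.0236), no larger than that of the median gene. In limma it turned to -0.28 (adjusted p = 0.0478) after scaling to covered length and to -0.02 (adjusted p = 0.904) after centring, and without any 1 list the adjusted p was 0.0516 to 0.148. H3K56ac was gained in 2 Klf6 regions, chr13:5864740-5865474 inside the gene and chr13:5845142-5845961 upstream of it, and 1 region beyond the far end of the gene, chr13:5888236-5888702, lost it. H3K27ac covered 6.66 and 5.29 kb in LPD, against 5.87 and 6.17 kb in B cells, and H3K18ac 6.80 and 5.68 kb in LPD, against 5.77 and 5.91 kb in B cells. Both overlapped and neither was called (differences -0.02 and 0.09, limma adjusted p = 0.955 and 0.739), although H3K18ac was called lower after scaling to covered length (-0.72, adjusted p = 0.0124).

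Klf4, one of the reprogramming factors, had less H3K27ac and H3K18ac in LPD in every list, without a call. H3K27ac covered 2.11 and 1.58 kb in LPD, against 3.21 and 3.04 kb in B cells (difference -0.72, SE 0.2, limma adjusted p = 0.0812). H3K18ac covered 2.61 and 2.24 kb in LPD, against 3.83 and 3.92 kb in B cells (difference -0.64, SE 0.173, limma adjusted p = 0.0569). The groups did not overlap for either mark. H3K56ac covered 2.31 and 2.41 kb in LPD, against 2.70 and 2.34 kb in B cells, which overlapped (-0.08, limma adjusted p = 0.538). Relative to the median gene Klf4 was called lower for H3K18ac (-1.15, limma adjusted p = 0.0199) and H3K56ac (-0.59, adjusted p = 0.0342), and after scaling to covered length for all 3 marks (-0.48, -1.42 and -0.82, adjusted p = 0.0263, 0.00419 and 0.00872). A single H3K27ac region inside the gene, chr4:55530382-55530977, was lost.

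Klf9, a hormone-responsive factor that restrains proliferation of B cells, showed no called difference for any mark in the lists as deposited. H3K27ac covered 3.18 and 2.19 kb in LPD, against 2.71 and 2.32 kb in B cells, H3K18ac 4.71 and 3.31 kb in LPD, against 2.88 and 2.87 kb in B cells, and H3K56ac 2.62 and 3.62 kb in LPD, against 2.597 and 1.63 kb in B cells. The LPD lists lay above the B cell lists for H3K18ac and, narrowly, for H3K56ac, and overlapped them for H3K27ac. The differences were 0.07, 0.43 and 0.54 (SE 0.239, 0.227 and 0.288, limma adjusted p = 0.859, 0.233 and 0.217). A single H3K18ac region in the gene, chr19:23146675-23147135, was gained. After scaling to covered length the H3K18ac difference was -0.36 (limma adjusted p = 0.0446).

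**Figure D4:**
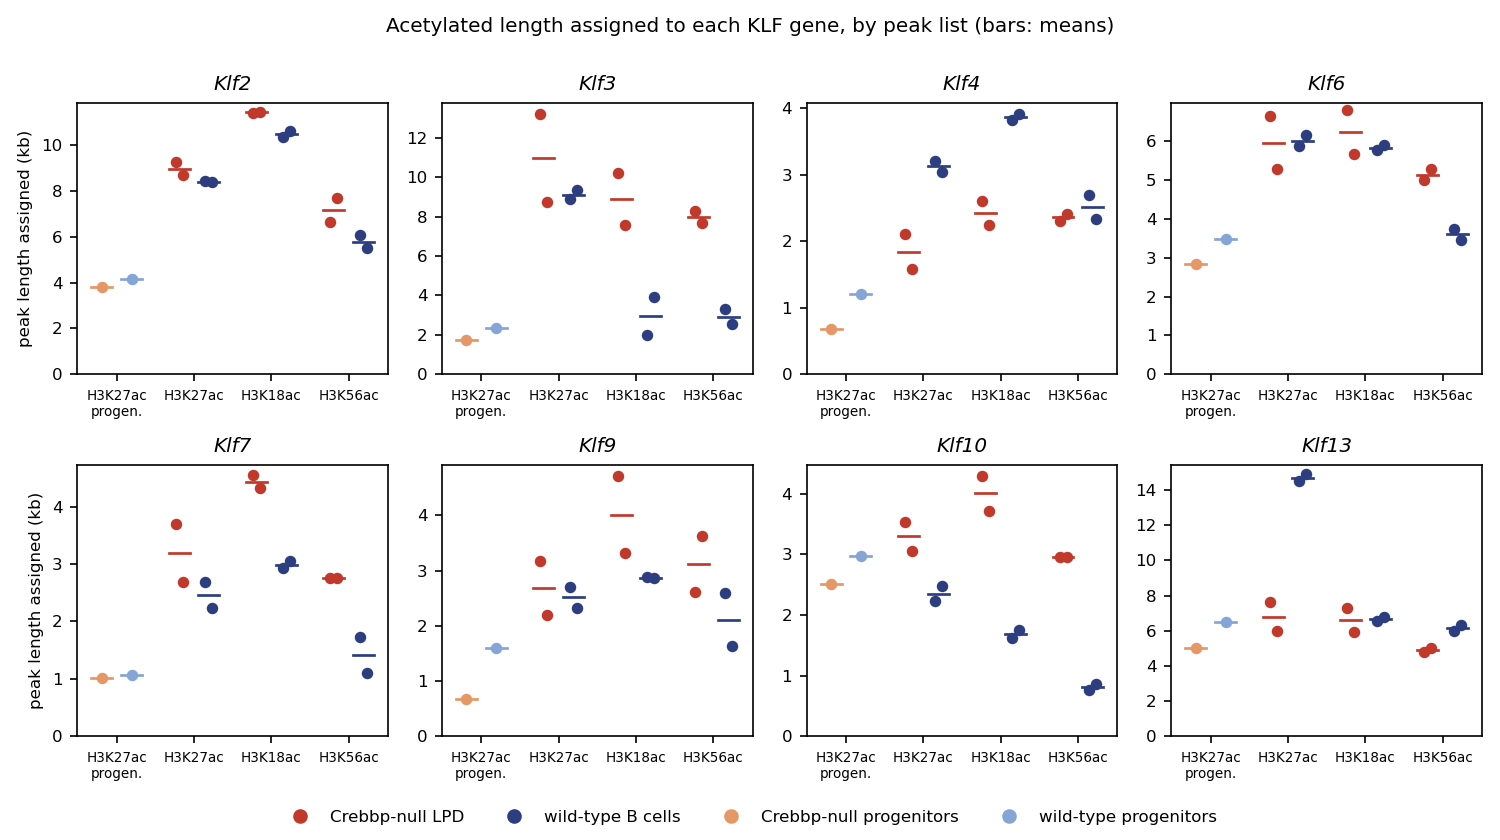
Peak length assigned to each member in each acetylation list, in kb (vertical axis from 0, its own scale in each panel), by mark, with points for lists and bars for the mean of each group. At Klf13 both B cell H3K27ac lists are above 14 kb and both LPD lists below 8 kb; at Klf3 and Klf10 the LPD lists of H3K18ac and H3K56ac lie above those of B cells.

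Klf2, the quiescence and homing factor, carried the most CBP of the members and showed no called change of acetylation in the lists as deposited. H3K27ac covered 9.25 and 8.67 kb in LPD, against 8.41 and 8.40 kb in B cells, H3K18ac 11.4 and 11.5 kb in LPD, against 10.4 and 10.6 kb in B cells, and H3K56ac 6.66 and 7.69 kb in LPD, against 6.05 and 5.53 kb in B cells. LPD lists lay above B cell lists for each mark. None of the differences was called (0.09, 0.12 and 0.30, SE 0.179, 0.15 and 0.114, limma adjusted p = 0.761, 0.573 and 0.118), and after centring on the median gene those for H3K18ac and H3K56ac were -0.39 and -0.21. After scaling to covered length the same differences were -0.70 and -0.48 and were called lower (limma adjusted p = 0.0381 and 0.0201). A region about 2 kb upstream of the start site gained H3K27ac (chr8:72316412-72316783), and 2 regions farther upstream gained H3K56ac (chr8:72294797-72295181 and chr8:72296695-72297014). At the region 15 kb upstream, chr8:72302867-72304082, H3K27ac covered 333 and 200 bp in LPD, against 1127 and 1059 bp in B cells, although a peak was present in all 4 lists. The other marks also covered less of it in LPD. H3K18ac covered 761 and 597 bp in LPD, against 1040 and 1189 bp in B cells, and H3K56ac 0 and 481 bp in LPD, against 737 and 684 bp in B cells. The region carried 845 bp of H3K27ac in Crebbp-null progenitors and 754 bp in wild-type progenitors.

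CBP peaks in wild-type B cells were assigned to 3 of the 8 members, Klf2, Klf6 and Klf9, and to 3.89% of all genes. The list holds 1000 peaks in all. Klf2 had 4 of them, and 14 genes had at least as many. By CBP peak length Klf2, with 2.70 kb, stood 4th of 841 genes with a CBP peak. Its 844-bp peak spans the start site from position -154 to position 689 (chr8:72318908-72319751, 15th widest in the list), and its 1095-bp peak runs from position 995 to 2089 (chr8:72320057-72321151, 7th widest). Peaks of 224 and 541 bp follow downstream, the last one ending 3840 bases from the start site. In LPD, which is labelled Crebbp-null, H3K27ac covered 1095 of the 1095 bp of the widest of these peaks in both lists, against 1011 and 1095 bp in B cells. H3K18ac and H3K56ac covered all 541 bp of the last peak in both LPD lists, against 336 and 479 bp of H3K18ac and 252 and 261 bp of H3K56ac in B cells. The Klf6 peak was 406 bp wide, from position -667 to position -262, and the Klf9 peak 257 bp, from position -390 to position -134. The Klf9 peak was covered in full by H3K27ac in every LPD and B cell list, by 0 bp of H3K27ac in Crebbp-null progenitors and by all 257 bp in wild-type progenitors. Each CBP peak of the members overlapped acetylated regions in all 12 LPD and B cell acetylation lists.

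**Figure D5:**
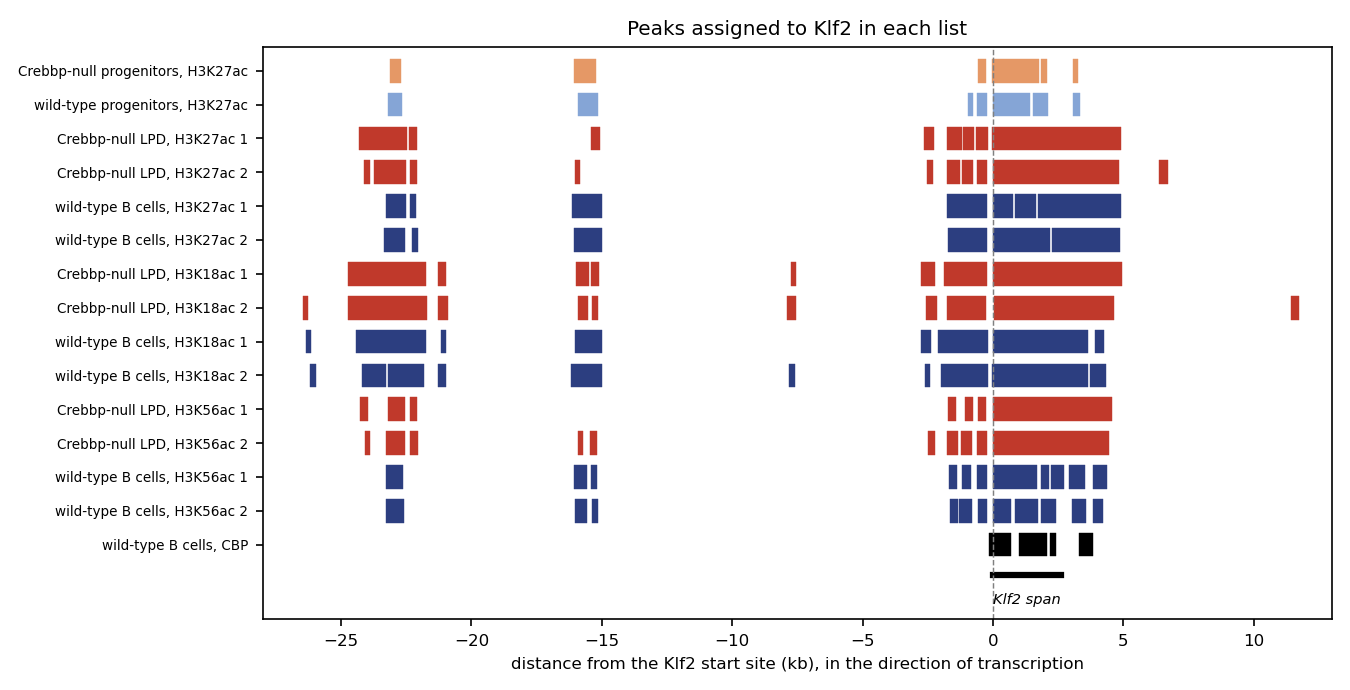
Peaks assigned to Klf2 in each of the 14 acetylation lists and in the CBP list of wild-type B cells (bottom row, black), by distance from the start site in kb (horizontal axis); each row is 1 list and each block 1 peak, to scale. The 4 CBP peaks lie over the acetylated blocks at the gene in every LPD and B cell list, and the region 15 kb upstream is covered less in LPD than in B cells for each mark.

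In progenitors, where there was 1 H3K27ac list per genotype and so no test, each member had less H3K27ac in the null than in the wild type. The null list was also shorter as a whole, with 13125 peaks against 17124 in the wild type, and the members' median log2 ratio of -0.32 was close to that of all genes, -0.33. Klf9 had 0.674 kb in Crebbp-null progenitors, against 1.59 kb in wild-type progenitors, the only member past a 2-fold difference (log2 ratio -1.04). That is 1 of 8 members lower and 0 higher, against 18.9% lower and 1.43% higher of 9765 genes. The Klf9 region over its start site held 265 bp in the null and 902 bp in the wild type. Klf4 had 0.679 kb in the null and 1.20 kb in the wild type, and Klf13 had 5.02 kb in the null and 6.498 kb in the wild type (log2 ratios -0.67 and -0.36). Klf2 had 3.81 kb in the null and 4.17 kb in the wild type, and Klf7 had 1.01 kb in the null and 1.07 kb in the wild type, the smallest ratios (-0.13 and -0.07). With the progenitor lists scaled to the same covered length, Klf9 did not pass 2-fold, and the members' median was 0.21, beside 0.095 for all genes.

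Over the 15 lists, 61 merged regions were assigned to the members, 18 of them to Klf13 and 10 to Klf2. Of the 61 regions, 15 had a peak in all 14 acetylation lists and 12 in 1 list only. Each member had at least 1 region in all 14. By Pearson correlation of log2(kb + 0.2) over the 15 lists, the gene most like Klf3 among 5928 with at least 1 kb on average was Ikzf1 (r = 0.99), and the gene most like Klf13 was Hspa9 (r = 0.994). For Klf2 it was Creb5 (r = 0.968), for Klf4 Zfp445 (r = 0.991), for Klf6 Trappc1 (r = 0.995), for Klf7 Pik3r1 (r = 0.983), for Klf9 Vars2 (r = 0.973) and for Klf10 Arid2 (r = 0.983). All genes share the lists and their covered lengths, and the correlations are given as a description. The 15 lists include the CBP list, in which Klf3, Klf4, Klf7, Klf10 and Klf13 had no peak. A low value shared in that list can raise the correlation between genes without CBP peaks.

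The other 9 KLF genes were low or without peaks in most lists, with some gains in LPD. For H3K27ac 6 of the 9 were tested, and 2 were called higher (Klf5 and Klf12) and 0 lower, against 7.86% higher of all genes. For H3K18ac 5 were tested and 4 called higher (Klf1, Klf5, Klf12 and Klf16), and for H3K56ac 5 were tested and 3 called higher (Klf5, Klf12 and Klf16), with 0 lower in each, against 26% and 36.8% higher of all genes. Klf5 for all 3 marks, and Klf12 for H3K56ac, entered these tests through their LPD peaks alone, so their calls add nothing to their values. Klf12, a repressor, had 10.4 and 7.20 kb of H3K27ac in LPD, against 1.56 and 1.18 kb in B cells. Its H3K56ac covered 7.47 and 7.04 kb in LPD, and it was listed at 0 in both B cell lists. Klf5, best known from epithelial cells, had 0.664 and 0.655 kb of H3K27ac in LPD and was listed at 0 in both B cell lists. Klf12 was called for H3K27ac (limma adjusted p = 0.00978) and H3K18ac (adjusted p = 0.00646), also after scaling to covered length (adjusted p = 0.000961 and 0.00896) and after centring (adjusted p = 0.00898 and 0.0109). Scaled to covered length, Klf1 and Klf16 were also called higher for H3K27ac and Klf11 lower for H3K18ac (limma adjusted p = 0.0261, 0.0105 and 0.0259). With either B cell list left out, the H3K18ac fit called no gene at all, so it could not judge the calls of these genes. Klf16 was called for H3K18ac and H3K56ac, and the H3K18ac call was lost under scaling and centring (limma adjusted p = 0.0727 and 0.159). Klf1, the erythroid factor, was called for H3K18ac, with 0.982 and 0.799 kb in LPD, against 0.43 and 0.409 kb in B cells, and the limma call was lost under scaling and centring (adjusted p = 0.359 and 0.323). Erythroid markers had peaks in LPD and none in B cells, as given above, and their part in the Klf1 value was not tested.

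The SP genes are the closest relatives of the KLF genes. Of 9 SP genes, 0 of 5 tested were called for H3K27ac by limma (0 also at an unadjusted p below 0.05), 1 of 6 was called higher for H3K18ac (Sp2) and 4 of 6 for H3K56ac (Sp1, Sp2, Sp3 and Sp4), against 26% and 36.8% higher of all genes. In the lists as deposited 0 of those tested were called lower. After scaling to covered length 0 SP genes were called higher for H3K56ac, and after centring 1 (Sp3). The H3K18ac call of Sp2 was lost under scaling and centring (limma adjusted p = 0.926 and 0.272), and Sp4 was called lower for H3K18ac after scaling (adjusted p = 0.0482).

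Genes of homing and quiescence that Klf2 is known to control or to act beside went in both directions for H3K27ac. Of 6 tested, Cdkn1a, a cell cycle inhibitor, and Itgb7, an integrin of gut homing, were called higher (differences 1.26 and 1.15, limma adjusted p = 0.0276 and 0.0257). Ccr7, a lymph node homing receptor, was called lower. It had 12.1 and 9.10 kb of H3K27ac in LPD, against 25.4 and 24.8 kb in B cells (difference -1.24, limma adjusted p = 0.0337). These H3K27ac calls were lost with either B cell list left out. Those fits called far fewer of all genes, above all of those higher in LPD, so the loss is not particular to these genes. For H3K18ac 4 of 6 (Cdkn1a, Cdkn1b, Itgb7 and S1pr1) and for H3K56ac 4 of 5 (the same 4) were called higher and 0 lower, against 26% and 36.8% higher of all genes. Itgb7 was listed at 0 in both B cell lists for H3K18ac and for H3K56ac and entered these 2 tests through its LPD peaks alone. The H3K18ac calls of Cdkn1a, Cdkn1b and S1pr1 were lost after scaling to covered length (limma adjusted p = 0.06, 0.929 and 0.273) and after centring (adjusted p = 0.13, 0.284 and 0.222). Ccr7 was called lower after scaling for H3K18ac and for H3K56ac (limma adjusted p = 0.00932 and 0.0364), and Cdkn1b lost its H3K56ac call (adjusted p = 0.0688). The H3K18ac fit with either B cell list left out called no gene at all, and it could not judge these calls. S1pr1, the lymphocyte egress receptor, had an H3K56ac difference of 1.71 (SE 0.0887, limma adjusted p = 0.00307), and after centring it was 1.21 (adjusted p = 0.00755).

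Upstream inputs and partners of the KLF proteins were also described from a list of 13 genes, of which 12 were tested for each mark. For H3K27ac, limma called 0 at an adjusted p below 0.05, and 1 was higher and 1 lower at an unadjusted p below 0.05. With lists scaled to covered length, limma called 3 higher for H3K27ac (Kat2b, Map2k5 and Mef2a, adjusted p = 0.0305, 0.0194 and 0.0024) and 2 lower (Foxo1 and Foxo3, adjusted p just under 0.05). Scaled in this way, 2327 of all 11986 genes were called higher for H3K27ac and 2004 lower. For H3K18ac 6 were called higher (Ep300, Foxo1, Kat2b, Map2k5, Mef2a and Mef2d) and for H3K56ac 4 (Ep300, Foxo1, Kat2b and Mef2a), with 0 lower in the lists as deposited, against 26% and 36.8% higher of all genes. Under that scaling, Ep300 and Mef2d lost their H3K18ac call (limma adjusted p = 0.732 and 0.342) and Ctbp1 and Mef2c were called lower (adjusted p = 0.0415 and 0.0379). After the same scaling 0 of the 12 were called higher for H3K56ac and 1, Foxo3, was called lower (adjusted p = 0.024). Leaving out either B cell list could not judge the H3K18ac calls, since that fit called no gene at all. Ep300, which encodes p300, had an H3K56ac difference of 0.92 (SE 0.0944, limma adjusted p = 0.00817), and 0.41 after centring (adjusted p = 0.0535). Mef2a, a factor of the MEF2 family, had an H3K18ac difference of 1.72 (SE 0.241, limma adjusted p = 0.0121), and 1.20 after centring (adjusted p = 0.037).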

How the data were processed

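Peaks of 15 ChIP-seq lists were analysed, and 14 RNA samples and 1 input sample are not analysed here. The deposited lists are 3-column tables of position on mm10; the authors give no score, signal or coverage in them. Per the submitters' processing notes, the tools included Bowtie2 2.1.0, Picard, MACS2 2.0.10 and bedtools. Depth is unknown, and the number of peaks called limits every comparison. Peaks were assigned to 21631 protein-coding genes of RefSeq GRCm38.p6 (chromosome Y left out), by their span widened by 1 kb or else by the nearest end within 50 kb, and their length was summed per gene and list in kb. LPD and B cells were compared per mark by limma 3.58.1 in R 4.3.3 on log2(kb + 0.2) with a trended prior, over genes with at least 1 peak, and Benjamini-Hochberg adjusted p-values below 0.05 were called; the marks were compared in 1 fit over 12 lists. Regions were merged over the lists of a mark with an overlap of 1 bp. Progenitors, with 1 list each, were compared by a 2-fold difference with no test. The limma step was also run on simulated data with a normal spread and planted differences. Those data lack the floor of genes without peaks and the differences in covered length between lists. That run therefore does not show how the calls here fare under them. Alternatives changed the assignment, the pseudocount (0.1 or 1 kb), the filter, the scaling, the peaks used, the replicate block and 1 list at a time. The genes named are the 8 members, the gene most like each of them, and the genes of the lists that passed. The members and lists were chosen with earlier results of these data known. Gene exons were not used. Python 3.11.15, pandas 2.3.3, NumPy 2.4.6, SciPy 1.17.1 and Matplotlib 3.10.9 were used. Single results of the gene lists that are not given by name are not reported here.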

Additional observations from a re-analysis of the deposited data

Results flagged for a closer look

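The change of acetylation in LPD against B cells differed between marks at Klf10 and Klf13, by the limma test of the difference itself on log2(kb + 0.2). At Klf10, the LPD difference exceeded that of H3K27ac by 0.703 for H3K18ac and by 1.18 for H3K56ac (adjusted p = 0.0248 and 0.00444). At Klf13, it exceeded that of H3K27ac by 1.08 for H3K18ac and by 0.783 for H3K56ac (adjusted p = 0.00856 and 0.0337). The median gene gave 0.61 and 0.60 in the same tests. After centring on the median gene the values were 0.09 and 0.58 at Klf10 and 0.47 and 0.18 at Klf13, and none was called (adjusted p 0.12 to 0.799). After scaling to covered length 0 members were called higher in either test.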

How the results depend on the processing

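The calls among the 8 members are given first. They have to be read beside those of all genes after scaling to covered length. For H3K27ac these were 2327 higher and 2004 lower of 11986 genes, and for H3K18ac 2522 higher and 3402 lower of 12223. For H3K56ac they were 1940 higher and 2423 lower of 11814. Without a B cell list the H3K18ac fit called no gene at all. For H3K27ac (0 higher, 1 lower), there were 0 with peaks of the widened span only, 0 with no filter, 5 with lists scaled to covered length (3 higher, 2 lower), and 0 to 2 with 1 list left out. For H3K18ac (2 higher, 0 lower), there were 1 higher with no filter, 1 higher with no trended prior, 5 scaled (all lower), 1 centred on the median gene (lower), 2 with lists cut to equal length (1 higher, 1 lower), and 0 to 4 with 1 list left out. For H3K56ac (4 higher, 1 lower), there were 2 higher with the widest 50% of peaks, 2 higher with no filter, 3 higher with no trended prior, 6 scaled (2 higher, 4 lower), 4 centred and 4 at equal length (2 higher, 2 lower each), and 0 to 3 with 1 list left out. For H3K18ac against H3K27ac (2 higher, 0 lower), there was 1 higher each with the span only, an end within 10 kb and the widest peaks, while the direction turned at equal length (1 lower) and scaled (4 lower), with 0 centred and 0 to 2 with 1 list left out. For H3K56ac against H3K27ac (2 higher, 0 lower), there was 1 higher each with the widest peaks and no filter, while the direction turned at equal length (2 lower) and scaled (2 lower), with 0 centred and 0 to 4 with 1 list left out. Same-numbered lists did not deviate together (correlations over genes 0.0065, 0.011 and -0.014 for H3K27ac, H3K18ac and H3K56ac), so the numbers were not taken as pairs. With the replicate number as a block, H3K56ac had 2 calls and each difference between marks had 1; the block changed no other count of calls by more than 1.5 times.

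Regions gained and lost also moved. H3K27ac gains (3) were 5 at equal length, 1 with the widest peaks, 1 with regions merged over 500 bp and 3 to 6 with 1 list left out, and losses (8) were 2, 3 (merged) and 9 to 13, and 14 when a region needed 50% coverage. H3K18ac gains (8) were 0 at equal length, 3 widest, 5 merged and 9 to 17, and losses (3) were 8, 1 (widest) and 4 to 7. H3K56ac gains (10) were 2 at equal length, 6 widest, 3 merged and 10 to 16, and losses (5) were 3 span only, 3 within 10 kb, 19 at equal length, 1 widest, 3 merged and 6 to 10. The 1 progenitor member past 2-fold became 0 at equal length, with the widest peaks, with a 1 kb pseudocount and scaled. The 6 CBP peaks did not change.

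Single log2 differences changed sign as follows. For H3K27ac, Klf6 (-0.02) was 0.091 span only, 0.091 within 10 kb, 0.21 at equal length, 0.064 widest, 0.23 scaled, 0.089 centred and -0.18 to 0.14 with 1 list left out; Klf9 was -0.0020 widest and -0.18 to 0.32; Klf3 was -0.055 to 0.53; Klf2 was -0.14 span only and -0.22 widest. For H3K18ac, Klf7 was -0.47 at equal length and -0.25 scaled, Klf6 -0.16, -0.72, -0.43 (centred) and -0.039 to 0.21, Klf9 -0.045, -0.36 and -0.082, Klf2 -0.14, -0.70 and -0.39, and Klf13 0.19 span only, 0.12 within 10 kb, 0.036 widest and -0.17 to 0.12. For H3K56ac, Klf7 was -0.067 at equal length, Klf6 -0.28 scaled and -0.017 centred, Klf9 -0.33 at equal length and -0.20 scaled, Klf2 -0.32, -0.48 and -0.21 (centred), Klf4 0.15 widest and -0.18 to 0.010, and Klf13 0.027 widest. For H3K18ac against H3K27ac, Klf10 was -3.08 at equal length and -0.30 scaled, and Klf13 -0.28 at equal length. For H3K56ac against H3K27ac, at equal length Klf10 was -2.01, Klf3 -0.80 and Klf13 -0.60, and Klf13 was -0.25 scaled.

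The cause of these changes was not tested. The lists as deposited differ in covered length between groups, and equal length was reached by leaving out the narrowest peaks, which removes narrow peaks from the longer lists. Klf13 H3K27ac kept its sign in all 17 alternatives and was called in 13. Klf3 and Klf10 H3K56ac also kept theirs in all 17 and were called in 15 and 14. The other called differences were called in 7 to 12, counted whatever the sign. For Klf6 H3K56ac the count of 9 includes the call in the opposite direction after scaling to covered length (-0.28). At Klf10 and Klf13 the differences between marks turned negative at equal length, as given above.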
